A study of Mus musculus with 32 samples.

Results

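The nuclear genes of the mitochondrial respiratory chain were followed through 32 RNA-seq libraries of mouse embryonic stem cells. They were chosen by symbol, as every listed gene whose name starts with Nduf, Uqcr, Atp5 or Sdh, or with Cox4, Cox5, Cox6, Cox7 or Cox8, leaving out names that contain -ps. The rule found 96 genes: 39 of complex I, 4 of complex II, 8 of complex III, 16 of complex IV, 17 of ATP synthase and 12 assembly factors (Ndufaf1 to Ndufaf8 and Sdhaf1 to Sdhaf4). Of these, 93 were listed in all 5 deposited tables, which list 14267 to 16381 genes each. Cox4i2 was listed in the RAD21, serum and hairpin tables, Cox6a2 in the RAD21 and hairpin tables, and Cox7b2 in every table but the serum one. Ndufa4, which structural work places in complex IV, is counted with complex I because of its symbol.

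The cells were of the E14 line and carried an auxin-inducible degron (AID) on CTCF, the zinc-finger protein that halts cohesin at chromatin loop anchors, or on RAD21, a subunit of the cohesin ring. CTCF AID cells were sampled at 0, 12 and 24 h of indole-3-acetic acid (IAA, 500 uM), and RAD21 AID cells at 0, 12 and 24 h, with 1 uM 5-Ph-IAA given as the agent for that line. A further CTCF AID pair, at 0 and 12 h of IAA, was labelled as a serum condition, although the growth protocol given for every sample describes a serum-free medium with LIF and both inhibitors of the naive state. CTCF AID cells carrying an overexpression control, wild-type CTCF or mutated CTCF were sampled without and with IAA. It was labelled as 12 h at 500 uM for the control and mutated CTCF cells titled as with IAA. CTCF AID cells with a control hairpin or a hairpin against Chd4, the ATPase of the NuRD chromatin remodelling complex, were sampled once, without IAA. No group without a degron was given IAA or 5-Ph-IAA, and these libraries do not measure protein. CTCF loss and RAD21 loss below are names for these treatments, and an effect of the agent itself was not tested. Each of the 16 groups has 2 libraries. Nothing says that these were separate cultures, so the tests measure the spread between libraries, which may be technical. The labels give no number of clones, no promoter for the overexpressed proteins and no description of the CTCF mutation. For the mutated CTCF cells titled as without IAA and the wild-type CTCF cells titled as with IAA, the treatment label says the opposite of the title, and groups here follow the titles.

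The respiratory chain passes electrons from NADH (complex I) and succinate (complex II) through complex III to oxygen at complex IV, and the proton gradient built on the way drives ATP synthase. Most subunits are encoded in the nucleus, a few core ones in mitochondrial DNA, and assembly factors bring them together without staying in the finished complex. Embryonic stem cells in the naive state are known to use both glycolysis and respiration.

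The libraries hold normalised counts that sum to between 15364584 and 19642332 per library. All 8 embryonic stem cell markers examined were above 10 in every library. A difference is given as log2(value + 1) of one group minus the other, with the standard error (SE) from limma, and a gene is called when its Benjamini-Hochberg adjusted p over all genes tested in that comparison is under 0.05. Tables were normalised separately, so levels are compared only within a table. In bulk RNA a smaller number of cells of a type and less RNA per cell cannot be told apart.

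Promoter sequences are shown for 5 genes chosen by their results. Ndufaf3 has the largest fall after CTCF loss. Uqcrc1, Atp5g2 and Atp5k hold the NRF1 motif and were called lower in all 3 experiments with 12 h of CTCF loss. Ndufaf4 was called lower in 2 of these experiments and higher with IAA in the cells that carry wild-type CTCF. Ndufb7 and Ndufab1, also called lower in all 3, are not shown. Each window runs from 250 bases before the start to 50 after it (RefSeq, GRCm38.p6, gene strand, 5′ to 3′). Capitals mark matches, on either strand, to the NRF1 palindrome (GCGCA followed directly by its reverse complement TGCGC), the ETS core CCGGAAG, or the CTCF core (CCA, AG and GGC, spaced by 2 bases of any kind). No 2 matches overlap in these windows. NRF1 is a factor known to bind promoters of many respiratory genes.
Ndufaf3: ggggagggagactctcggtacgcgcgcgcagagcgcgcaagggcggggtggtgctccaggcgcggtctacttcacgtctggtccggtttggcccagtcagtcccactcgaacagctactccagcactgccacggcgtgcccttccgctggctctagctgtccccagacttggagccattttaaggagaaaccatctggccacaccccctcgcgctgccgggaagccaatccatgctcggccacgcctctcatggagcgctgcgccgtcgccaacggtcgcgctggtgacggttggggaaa
Uqcrc1: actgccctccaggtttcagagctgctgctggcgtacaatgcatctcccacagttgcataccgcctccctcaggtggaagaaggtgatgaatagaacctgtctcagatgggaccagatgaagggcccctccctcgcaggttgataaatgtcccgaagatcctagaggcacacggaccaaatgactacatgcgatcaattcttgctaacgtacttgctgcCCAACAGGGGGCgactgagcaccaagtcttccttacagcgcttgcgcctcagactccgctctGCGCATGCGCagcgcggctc
Atp5g2: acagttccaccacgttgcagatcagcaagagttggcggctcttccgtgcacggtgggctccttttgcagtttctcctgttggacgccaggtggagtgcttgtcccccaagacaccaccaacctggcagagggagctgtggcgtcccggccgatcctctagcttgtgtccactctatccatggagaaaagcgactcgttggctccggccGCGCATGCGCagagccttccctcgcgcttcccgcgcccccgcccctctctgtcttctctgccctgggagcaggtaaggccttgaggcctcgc
Atp5k: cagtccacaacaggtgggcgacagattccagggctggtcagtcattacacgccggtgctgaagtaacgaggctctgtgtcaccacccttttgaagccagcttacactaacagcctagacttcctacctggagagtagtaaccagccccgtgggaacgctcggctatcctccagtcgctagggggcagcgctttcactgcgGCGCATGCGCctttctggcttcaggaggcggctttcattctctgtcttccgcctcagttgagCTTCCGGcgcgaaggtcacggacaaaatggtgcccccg
Ndufaf4: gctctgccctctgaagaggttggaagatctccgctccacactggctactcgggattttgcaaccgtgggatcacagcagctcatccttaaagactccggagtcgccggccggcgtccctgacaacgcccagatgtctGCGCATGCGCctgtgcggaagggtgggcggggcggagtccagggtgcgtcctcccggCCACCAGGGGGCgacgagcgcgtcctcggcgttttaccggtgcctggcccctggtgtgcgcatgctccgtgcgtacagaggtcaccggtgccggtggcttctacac
The windows lie at chr9:108567387-108567686 on the minus strand (Ndufaf3), chr9:108936398-108936697 on the plus strand (Uqcrc1), chr15:102670998-102671297 on the minus strand (Atp5g2), chr5:108434350-108434649 on the minus strand (Atp5k) and chr4:24897833-24898132 on the plus strand (Ndufaf4). In Uqcrc1 the CTCF core CCAACAGGGGGC begins 32 bases before the start and the NRF1 palindrome begins at base 31 after it. In Ndufaf4 the NRF1 palindrome begins 113 bases and the CTCF core CCACCAGGGGGC 56 bases before the start. The NRF1 palindrome begins 42 bases before the start in Atp5g2 and 50 bases before it in Atp5k, where an ETS match follows the start. The Ndufaf3 window holds none of the 3 motifs.

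A promoter window was found for 79 of the 96 genes. The NRF1 palindrome was in 7 of them, which is 8.86% against 1.07% of all 27025 genes with a window, and besides the 4 genes above these were Cox6a1, Ndufa11 and Ndufaf5. The ETS core was in 22 of 79, or 27.8%, against 9.93% of all genes. The CTCF core, chosen after expression values had been seen, was in 5 of 79, or 6.33%, against 2.82% of all genes: Uqcrc1, Ndufaf4, Ndufa6, Ndufb6 and Ndufv1. Of the 10 genes called lower in at least 2 of the 3 experiments with 12 h of CTCF loss, 9 had a window. Of those, 4 held the NRF1 palindrome, 2 the ETS core and 2 the CTCF core. A match describes the letters in the window and is not a measured binding site.

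Together the members made up 0.974% to 1.232% of a library's summed value, as group means. ATP synthase genes held the largest portion, 0.4673% to 0.5955% over the groups, and the 39 complex I genes 0.1926% to 0.2603%. Per kilobase of exon, Atp5b and Atp5a1, the catalytic beta and the alpha subunit of ATP synthase, ranked first and second of the members in each of the 5 untreated or control groups. Atp5b stood at 7761 and Atp5a1 at 6619 normalised counts per kilobase in the untreated CTCF AID cells, and at 11698 and 6560 in the untreated RAD21 AID cells. Cox8a, Cox4i1, Cox6a1 and Cox6b1, subunits of cytochrome c oxidase (complex IV), and Atp5c1, the ATP synthase gamma subunit, ranked between 3 and 9 in each of these groups. The members are short, with a median exonic length of 1631 bp against 3488 bp for all protein-coding genes.

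Tissue-restricted isoforms of complex IV differed in their portion of the pair on the per-kilobase scale. Cox6b2, an isoform best known from testis, made up 6.13% to 11.15% of Cox6b1 plus Cox6b2 in the untreated and control groups. Cox7b2 made up 2.08% to 9.11% of its pair with Cox7b, and Cox7a1, the muscle and heart isoform, 10.8% to 34.5% of its pair with Cox7a2. Cox4i2 and Cox6a2, also restricted isoforms, were at 0.481% of their pairs or less in the untreated and control groups that list them. The c subunit of ATP synthase has 3 genes, which encode the same mature protein. Per kilobase, Atp5g2 and Atp5g3 carried 39.7% to 46.95% and 41.0% to 53.0% in these groups, and Atp5g1 7.29% to 12.1%. The length used joins all annotated exons of a gene, so these portions depend on the annotation. Before division by length, Atp5g1, Atp5g2 and Atp5g3 were at 2296, 3479 and 5087 in the overexpression control without IAA.

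After 12 h of IAA in CTCF AID cells, a small set of respiratory genes fell while most of the 94 measured members were not called. Of the 94, 11 were called lower and 1 higher. Over all genes tested in this comparison 8.40% were called lower and 9.39% higher, beside 11.7% and 1.06% of the members. Of the 11, 5 were complex I genes, 2 ATP synthase, 2 assembly factors, 1 complex III and 1 complex IV, and none of the 4 complex II genes was called. The median difference over the members was -0.04, against 0.00 over all genes.

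The deepest fall was in Ndufaf3, a factor that acts with Ndufaf4 in early complex I assembly. It was at 109 and 90.0 normalised counts in the untreated libraries and at 18.9 and 38.1 at 12 h. At 24 h it was at 29.5 and 23.8. All 4 treated libraries lay below both untreated ones, and the difference was -1.84 (SE 0.37, limma adjusted p = 0.0155) at 12 h and -1.86 at 24 h. Ndufaf3 lies at chr9:108565537-108567434, minus strand, in GRCm38, and exons of Impdh2 overlap it on the opposite strand. Impdh2, with 5747 and 5932 untreated and 6258 and 6235 at 12 h, was not called, and since the counting is not said to use strand, reads of the pair might not be separated.

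Ndufb7, an accessory subunit of the membrane arm of complex I (chr8:83566671-83571626, plus strand), was at 724 and 801 in the untreated libraries. It was at 345 and 354 at 12 h and 217 and 269 at 24 h. Its differences were -1.12 (SE 0.13, limma adjusted p = 0.00168) and -1.65, so that 31.8% of the untreated level was left at 24 h on the log2 scale of the fit. Ndufab1 (chr7:122085403-122101886, minus strand) encodes the mitochondrial acyl carrier protein, which is a complex I subunit and also carries the chain for lipoic acid synthesis. It was at 1262 and 1439 untreated, 722 and 805 at 12 h, and 533 and 619 at 24 h, a difference of -0.82 (SE 0.11, limma adjusted p = 0.00307) at 12 h and -1.23 at 24 h. For both genes the untreated, 12 h and 24 h libraries formed 3 separate steps. The steps from 12 h to 24 h were not called: no member was called between these times by limma, 15 members had an unadjusted p under 0.05, and 0.146% of all genes were called.

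Other falls were smaller. Atp5k, subunit e at the dimer interface of ATP synthase (chr5:108433244-108434448, minus strand), was at 196 and 146 untreated, 105 and 105 at 12 h, and 76.3 and 74.2 at 24 h. Uqcrc1, a core protein of complex III (chr9:108936633-108949623, plus strand), was at 4194 and 4258 untreated and at 3223 and 3439 at 12 h, 78.8% of the untreated level. Its treated libraries lay below both untreated ones. Atp5g2, a c subunit gene, fell by 0.29 at 12 h and by 0.46 at 24 h, while Atp5g1 and Atp5g3 differed by -0.13 and 0.00 at 12 h and were not called. The Atp5g2 part of the c subunit genes went from 42.4% ± 0.26 (SD, n = 2) to 38.0% ± 0.22 and 34.9% ± 0.79. Ndufb8, Ndufv1, Ndufaf4 and Cox4i1 fell by 0.19 to 0.29 at 12 h.

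The rises were fewer. Cox6a1, the widely expressed form of a complex IV subunit, was at 1968 and 2074 untreated, 2324 and 2467 at 12 h, and 2681 and 2992 at 24 h, a difference of 0.25 and then 0.49. At 24 h, 4 members were called higher and 12 lower, against 11.7% and 10.8% of all genes tested. The other 3 higher ones were Cox7a2l, a factor for joining complexes III and IV, Ndufaf8, and Atp5e, the epsilon subunit of ATP synthase. Atp5e was at 9.83 and 8.61 untreated and at 54.4 and 36.9 at 24 h, a difference of 2.17 (SE 0.42, limma adjusted p = 0.0115) from a low level. The 2 comparisons share their untreated libraries. With any 1 library left out, 3 or 4 members remained past the threshold at 12 h, always including Ndufab1, Ndufb7 and Uqcrc1, and 7 to 13 at 24 h.

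Cell type markers also moved after CTCF loss. Of 8 embryonic stem cell markers 2 were higher and 1 lower at 12 h, and 2 higher and 3 lower at 24 h, with Nanog falling by 0.40 and 0.41. Their sum stayed between 82401 and 85538 in the 6 libraries. Of 3 mesoderm markers tested 1 was called, T (brachyury), which rose by 2.95 at 12 h (SE 0.30, limma adjusted p = 0.00116) and by 3.98 at 24 h. The mesoderm list summed to 147 and 135 untreated, 151 and 189 at 12 h, and 234 and 215 at 24 h. Of 3 neural markers 1 was higher at 12 h, and 1 higher and 1 lower at 24 h. The neuronal tubulin gene Tubb3 rose by 0.81 and 0.42, and the neural list summed to 1922 and 1978 untreated, 2568 and 2479 at 12 h, and 2244 and 1996 at 24 h. Of 3 primitive endoderm markers 1 was higher at each time, Lama1, and the list summed to 1867 and 1725 untreated, 2238 and 2180 at 12 h, and 2883 and 3260 at 24 h. Of 3 trophoblast markers 1 was lower at 12 h, and of 2 two-cell-like markers 1 was lower at each time. Neither of 2 fibroblast markers was called. The part of these changes in the member differences was not tested.

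In the serum-labelled cells, 10 of 94 members were called lower and 2 higher after 12 h of IAA, against 9.25% and 7.73% of all genes. Ndufaf3 was at 162 and 161 without IAA and at 24.1 and 24.5 with it, a difference of -2.68 (SE 0.18, limma adjusted p = 0.000174) that left 15.6% of the untreated level. Ndufb7 went from 411 and 409 to 229 and 212, and Ndufab1 from 1070 and 1064 to 569 and 602. Ndufaf4 (chr4:24898083-24905001, plus strand), the assembly partner of Ndufaf3, was at 995 and 967 and fell to 687 and 607. In these 4 genes the pairs of libraries lay far apart compared with their spread.

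Cox6b2 fell from 189 and 183 to 120 and 96.4 in the serum-labelled cells, and Uqcrq, Uqcrc1, Atp5g2, Atp5k and Ndufb10 fell by 0.22 to 0.38. The core complex I subunits Ndufs7 and Ndufs8, which hold iron-sulphur clusters, rose by 0.32 and 0.41. In these libraries 5 of 8 embryonic stem cell markers were also called lower, their sum being 62396 and 62782 without and 54414 and 55645.5 with IAA, 1 of 3 mesoderm markers was higher, and of 6 primitive endoderm markers 1 was higher and 1 lower. The part of this in the member differences was not tested. Without the first or the second IAA-treated library, 7 members were called, none of them higher. Ndufaf3, Ndufb7, Ndufab1, Ndufaf4, Uqcrc1 and Atp5g2 were called without any 1 of the 4 libraries.

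The third experiment used CTCF AID cells with the overexpression control. Here IAA gave 26 of 94 members lower, or 27.7%, and 2 higher, or 2.13%, against 12.5% and 12.8% of all genes. When only genes with a mean of at least 100 were fitted, 28 members were called lower and 1 higher, against 15.9% and 16.4% of those genes. All 8 complex III genes lay below 0, and 4 of them were called: Uqcrc1, Uqcrc2, the Rieske protein gene Uqcrfs1 and Uqcr10. Also called lower were 9 complex I genes, 4 ATP synthase genes, 4 assembly factors, 3 complex IV genes and 2 complex II genes (Sdha and Sdhd). The median over the members was -0.10, against 0.00 over all genes. With any 1 of the 4 libraries left out, 17 to 21 members were called. Markers moved here too. Of 3 neural markers 2 rose, Tubb3 by 0.76 and the progenitor marker Nes by 0.70, and the list summed to 2191 and 2260 without and 3694 and 3575 with IAA. Of 8 embryonic stem cell markers 2 were higher and 3 lower, Sox2 falling by 0.33 and Esrrb by 0.20, and the list summed to 99543 and 97749 without and 100760 and 101231 with IAA. Of 3 mesoderm markers T fell by 1.02, the list summing to 216 and 202, then 167 and 161. Of 3 primitive endoderm markers Pdgfra rose by 1.63, the list summing to 3331 and 2418, then 2335 and 2796. Of 4 trophoblast markers Tfap2c rose by 0.40 and Krt8 fell by 0.58, the list summing to 1614 and 1503, then 1934 and 1861. The part of these changes in the member differences was not tested.

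**Figure D1:**
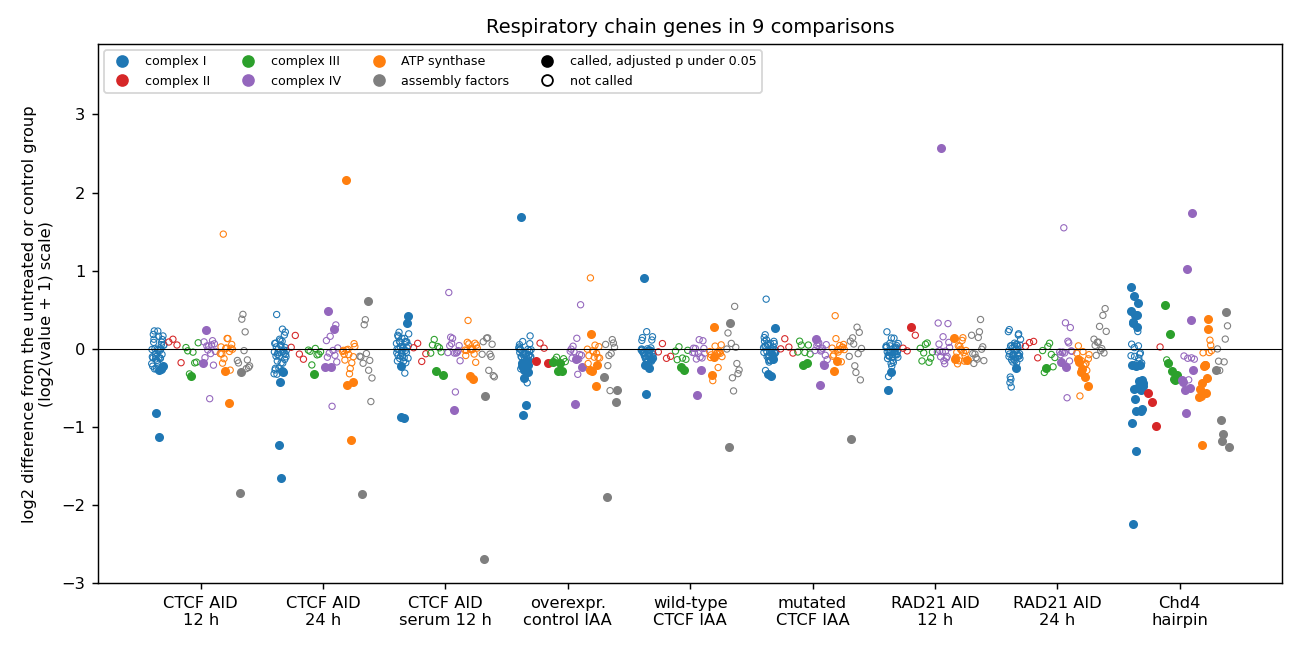
Log2 difference (vertical axis, log2(value + 1) scale) of every measured member in 9 comparisons, each against the untreated or control group of its own table and coloured by complex; filled points were called (limma adjusted p under 0.05), open points were not. Ndufaf3 is the lowest point in each of the 6 CTCF comparisons, most members lie near 0 there, and the Chd4 comparison has 64 filled points.

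In the control cells Ndufaf3 went from 158 and 158 to 45.9 and 37.7 (difference -1.90), Ndufab1 from 1598 and 1670 to 856 and 964 (-0.85) and Ndufb7 from 803 and 793 to 479 and 486 (-0.72). Cox6b2 went from 660 and 612 to 401 and 377 (-0.71). Most of the other falls were small: the subunit genes Sdha, Cox6c, Uqcr10, Ndufb9 and Ndufa7 fell by 0.13 to 0.17. Ndufa4l2, a paralog of Ndufa4 known to respond to low oxygen (its exons overlap those of Shmt2 on the opposite strand), rose from 12.3 and 14.3 to 45.1 and 44.4. Atp5g1 rose by 0.19, from 2376 and 2216 to 2625 and 2608.

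Across the 3 tables with 12 h of IAA in CTCF AID cells, which have separate untreated libraries, 6 members were called lower in all 3: Ndufaf3, Ndufb7, Ndufab1, Atp5k, Uqcrc1 and Atp5g2. These were 6.45% of the 93 members tested in all 3 tables, beside 2.22% of the 12799 genes tested in all 3. Cox6b2, Ndufaf4 and Ndufb10 were among those called lower in 2 of 3. At least 2 calls lower were seen in 10.8% of the members and 6.55% of all genes, and none in 62 of the 93 members, or 66.7%, against 76.9% of all genes. No member was called higher in more than 1 of the tables, beside 6.84% of all genes. Whether the members differ in this from other genes was not tested. Cox6b2 was an exception by table. It had a difference of -0.01 and no call in the CTCF AID cells with neither the serum label nor the overexpression control. Ndufs1, a core complex I subunit, and Atp5a1 differed by -0.06 to 0.00 in each of the 3 and were not called.

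**Figure D2:**
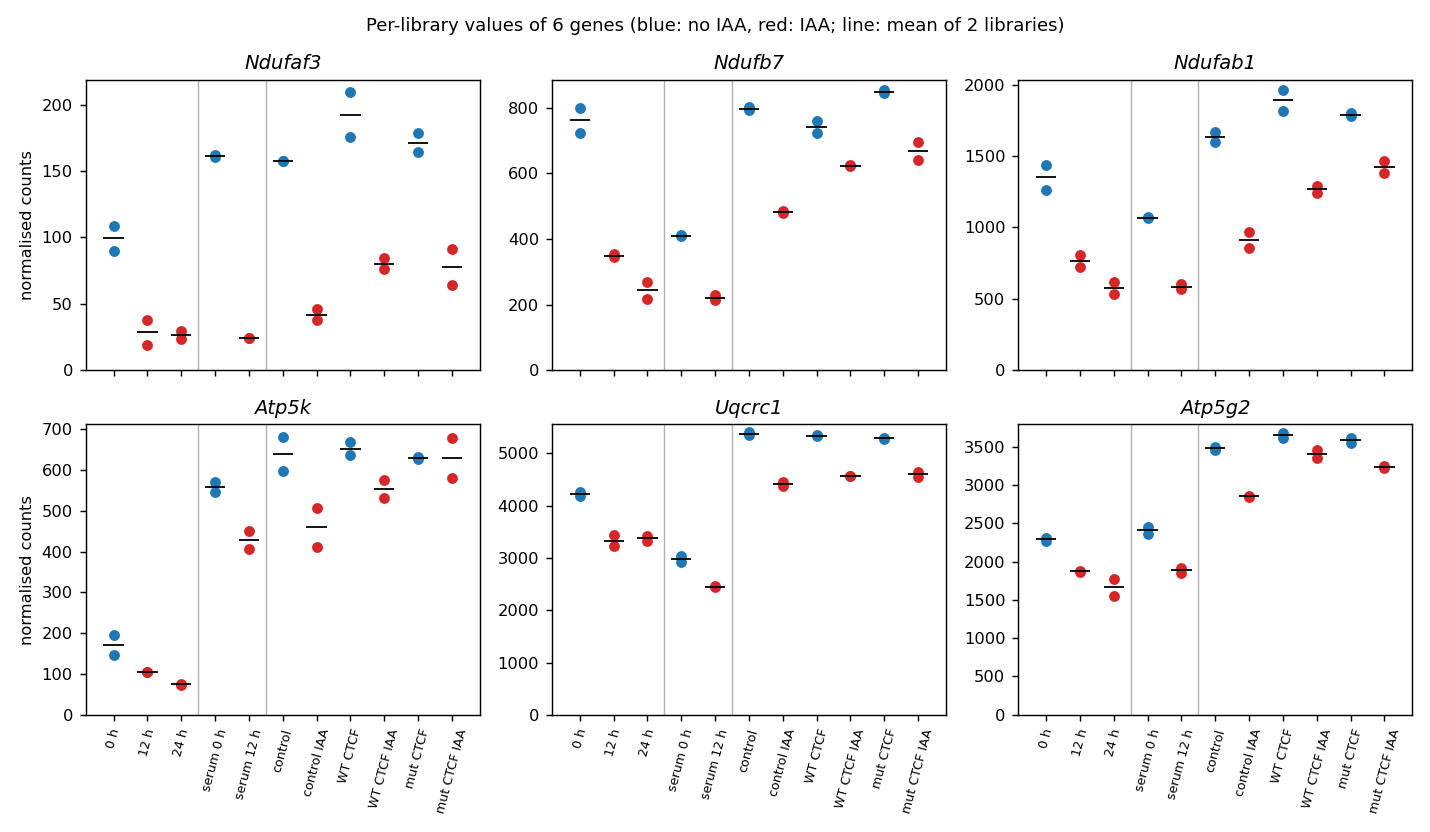
Normalised counts (vertical axis, from 0) of the 6 members called lower after 12 h of IAA in all 3 tables, with 1 point per library, blue without and red with IAA, and a line at the mean of 2 libraries; grey lines separate the tables, which were normalised separately. In Ndufaf3, Ndufb7 and Ndufab1 every red point lies below every blue point of its table, while in Atp5k the points of the mutated CTCF cells overlap.

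The overexpression lines ask how far these changes occur when CTCF is supplied from another source. With wild-type CTCF, IAA gave 11 members lower and 3 higher, against 10.3% and 11.1% of all genes. With mutated CTCF it gave 10 lower and 2 higher, against 7.92% and 8.31%. The 14 calls with wild-type CTCF became 7 without the first IAA-treated library, 9 without either untreated one and 8 when only the groups compared were fitted, and the 12 with mutated CTCF became 6 without the second IAA-treated and 7 without the second untreated library. Ndufaf3, Uqcrc1 and Cox6b2 were called in every fit that left out 1 library, in both lines. Ndufaf3 remained called in both: it went from 175 and 209 to 76.0 and 84.3 with wild-type CTCF, and from 178 and 164 to 91.6 and 64.3 with mutated CTCF. The differences of -1.25 and -1.15 were smaller than the -1.90 of the control cells, and neither test of that difference between lines was called. Uqcrc1 fell by 0.23 and 0.20, and Cox6b2 by 0.59 and 0.46.

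Tests of the IAA effect itself between lines called 2 of 94 members for wild-type CTCF against control and 1 of 94 for mutated CTCF against control. Over all genes 1.41% and 1.64% were called, so both counts lie near the share of all genes. Ndufb7 fell by 0.25 with wild-type CTCF, from 760 and 722 to 625 and 623, against a fall by 0.72 in the control cells. The effect was 0.48 less negative (SE 0.09, limma adjusted p = 0.0283). Ndufaf4 was at 1001 and 956 without and at 1321 and 1155 with IAA in the wild-type CTCF cells, a rise of 0.34, while in the control cells it was at 1033 and 1046 without and 852 and 941 with IAA. The effects differed by 0.55 (SE 0.12, limma adjusted p = 0.0497). Ndufab1 fell by 0.33 with mutated CTCF against 0.85 in the control cells, a difference of 0.52 (SE 0.09, limma adjusted p = 0.0174).

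None of these 3 differences stayed called through the removal of each library in turn: leaving out 1 of the 8 libraries gave 0 or 1 call in each of the tests, and Ndufb7 and Ndufaf4 gave no call when only the groups compared were fitted. Of the 94 members, 62 had a higher IAA effect with wild-type and 71 with mutated CTCF than in the control cells, as a description with no test. The share over all genes is not given here, so these counts cannot show whether the members differ from other genes. Both sets of differences share the control libraries, and a low estimate in the control cells would raise both counts. The titles and treatment labels of 1 group in each contrast disagree, which bears on each of these values. By the treatment labels, both groups of each CTCF-carrying line would have had the same treatment. With groups as titled, IAA gave called rises in the control, wild-type and mutated CTCF lines alike in Tubb3 (0.76, 0.83 and 0.61), Nes (0.70, 0.65 and 0.68) and Ctcf RNA (0.28, 0.28 and 0.27), and a called fall in T in each line.

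**Figure D3:**
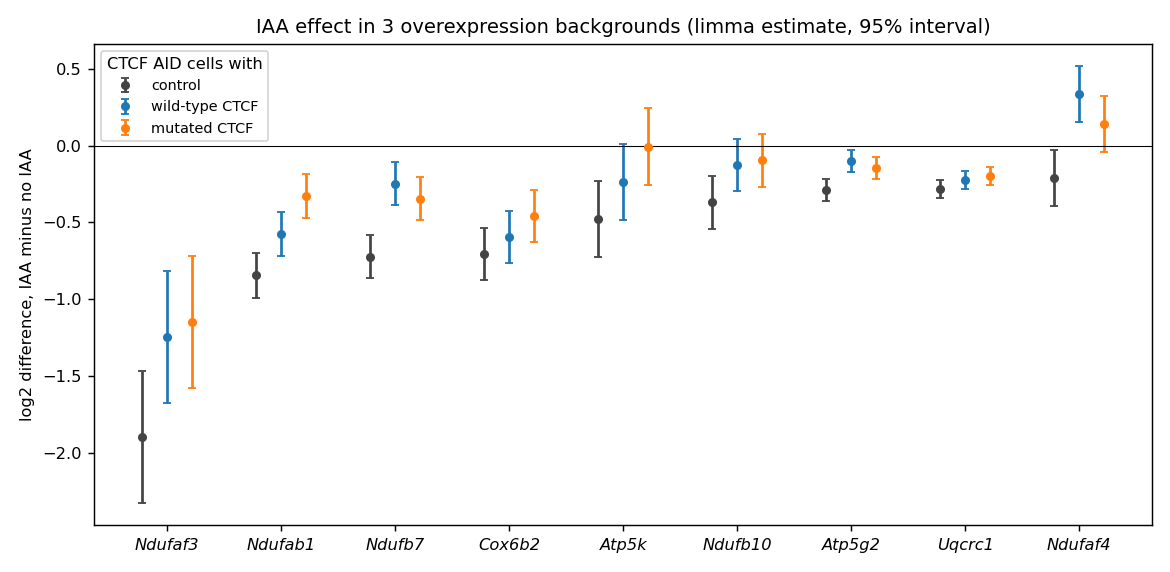
Log2 difference between IAA and no IAA (vertical axis, limma estimate with its 95% interval) for 9 members called lower in at least 2 of 3 tables, in CTCF AID cells with the control, wild-type CTCF or mutated CTCF. The control estimates are the lowest of the 3 in all 9 genes, and the Ndufaf4 estimate with wild-type CTCF lies above 0, at 0.34. The table of the control cells was among the 3 used to choose these genes, which favours low control estimates. The order of the lines alone therefore cannot show whether falls were weaker with CTCF supplied.

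Without IAA, wild-type CTCF gave no called member against the control cells in limma, 12 with an unadjusted p under 0.05, and 0.897% of all genes called. Mutated CTCF gave 2 calls, against 5.55% of all genes: Cox7a2l rose from 969 and 913 to 1154 and 1161, and Sdha fell from 6067 and 6224 to 5452 and 5767. Neither was called in a fit of those groups alone.

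After loss of the cohesin subunit RAD21, the calls lay mostly in ATP synthase at 24 h. Each of the 24 h calls was lost in at least 1 fit that left out a library. At 12 h, 3 of 96 members were called higher and 4 lower, against 6.66% and 6.35% of all genes. At 24 h none was called higher and 10 were called lower, against 6.54% and 7.16%; 5 members were above and 24 below 0 at an unadjusted p under 0.05. Ndufaf3, Ndufab1, Atp5k and Uqcrc1 were called at neither time. The difference between the CTCF and RAD21 effects was not tested, since the cells lie in separate tables. Of 8 embryonic stem cell markers 2 were higher and 3 lower at each time, the list summing to between 92530 and 93976 in the 6 libraries. Of 6 primitive endoderm markers Lama1 was higher at 24 h, the list summing to 1977 and 2092 at 0 h and 3073 and 2974 at 24 h, and of 3 trophoblast markers 1 was lower at 12 h and 2 at 24 h. Called at 24 h but not at 12 h were the neural marker Sox1 (-0.75), the fibroblast marker Thy1 (1.82) and Eomes (-0.61). Eomes is on both the mesoderm and the trophoblast list, and is 1 of the 2 trophoblast markers lower at 24 h. The part of these marker changes in the member differences was not tested.

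Of the 10 falls at 24 h, 6 were in the 17 ATP synthase genes, of which 16 lay below 0 with a median of -0.19. The c subunit genes Atp5g1 and Atp5g3 were at 2464 and 2609, and 3940 and 3725, at 0 h. At 24 h they were at 2054 and 2069, and 3241 and 3153. At 12 h, with 2587 and 2626 for Atp5g1, neither was called. Atp5j2 (subunit f) went from 2000 and 1959 to 1617 and 1471, and Atp5mpl, a small proteolipid of the same complex, from 446 and 461 to 331 and 320. Atp5d, the delta subunit, fell by 0.16.

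Atp5b was at 50032.6 and 49099.8 at 0 h, 44023 and 46256 at 12 h and 45500.3 and 44721 at 24 h, and was called lower at both times (-0.14 each). Atp5a1, the alpha subunit that alternates with beta in the catalytic head, was called higher at 12 h (0.14) and differed by -0.06 at 24 h. From 12 h to 24 h, 7 members were called lower and 1 higher, against 8.26% and 7.67% of all genes. Of the 7, 5 were ATP synthase genes (Atp5j2, Atp5mpl, Atp5g1, Atp5g3 and Atp5a1), and the gamma subunit gene Atp5c1 was the 1 higher. Without the second 12 h library 4 were called and without the first 24 h library 5. Atp5g1, Atp5g3, Atp5a1 and Cox5a were called without any 1 of the 4 libraries, while Atp5j2, Atp5mpl and Atp5c1 each lost the call in at least 1 such fit. The 12 h libraries serve in both steps.

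**Figure D4:**
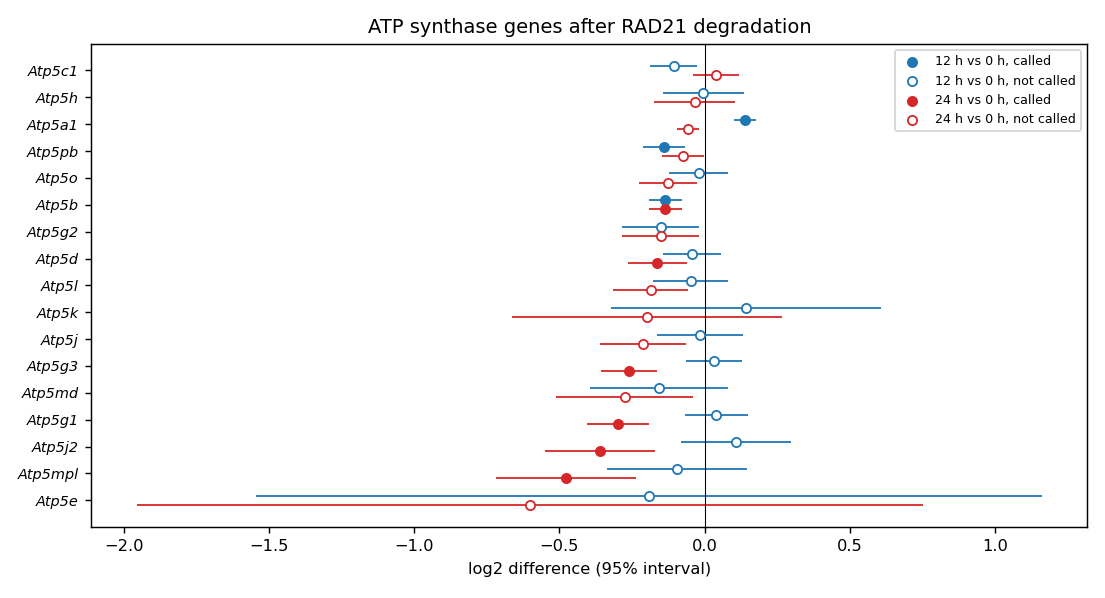
Log2 difference from 0 h (horizontal axis, limma estimate with its 95% interval) of the 17 ATP synthase genes in RAD21 AID cells after 12 h (blue) and 24 h (red), with called genes filled. The 6 filled red points lie between -0.48 and -0.14, and 16 of the 17 red points lie below 0.

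Outside ATP synthase, Cox5a, Cox6c (complex IV), Uqcrb (complex III) and Ndufb7 fell by 0.17 to 0.24 at 24 h. At 12 h the accessory complex I genes Ndufa3 and Ndufb10 fell by 0.53 and 0.30, and Sdhc, a membrane anchor of succinate dehydrogenase, rose from 2469 and 2502 to 2862 and 3153. Cox6a2, the heart and skeletal muscle isoform of Cox6a1, was at 3.57 and 6.74 at 0 h, 31.4 and 37.6 at 12 h and 17.9 and 15.0 at 24 h. Its rise of 2.57 (SE 0.44, limma adjusted p = 0.0138) came from very low values, and exons of Itgad overlap it on the opposite strand. These calls rest on few libraries: with any 1 left out, 1 or 2 members were called at 12 h and 1 to 3 at 24 h, and 6 were called at 24 h when only the groups compared were fitted.

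With the hairpin against Chd4, calls were about as common among the members as among all genes, and among the members falls outnumbered rises. Chd4 itself was at 9923 and 9526 in the control and 3379 and 3729 in the Chd4 hairpin libraries. Of 94 members tested (Cox4i2 and Cox6a2 were under the minimum mean), 47 were called lower and 17 higher, or 50% and 18.1%. Over all genes tested 33.8% were called lower and 33.5% higher. In a fit of genes with a mean of at least 100, 48 were lower and 17 higher, against 41.8% and 30.8% of those genes. The member median was -0.20, against 0.01 over all genes and -0.09 over those with a mean of at least 100.

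Markers moved with these changes. The embryonic stem cell list summed to 88899 and 88084 in the control and 64862 and 64406 in the Chd4 hairpin libraries, with 6 of 8 called lower. The 4 two-cell-like markers summed to 27.3 and 28.7, then 620 and 575, with 3 of 3 tested called higher. Of 7 primitive endoderm markers tested 4 were higher and 3 lower, the list summing to 1931 and 2039, then 2058 and 1951. Of 4 trophoblast markers 3 were higher and 1 lower, the list summing to 1789 and 1834, then 1607 and 1714. The neural list summed to 2547 and 2499, then 4043 and 4090, with 2 of 4 higher and 1 lower, and the mesoderm list to 279 and 186, then 452 and 483, with 2 of 3 higher. The fibroblast list summed to 316 and 239, then 559 and 628, with 2 of 2 higher. The part of these changes in the member differences was not tested.

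Complex II had the lowest median, -0.62. Sdhc went from 2354 and 2444 to 1191 and 1221, Sdhb, the iron-sulphur subunit, from 1657 and 1694 to 985 and 1117, and Sdha, the flavoprotein, from 5989 and 6011 to 4008 and 4137. The other anchor, Sdhd, was not called. The pairs of libraries of the 3 called genes lay far apart. Among their assembly factors, Sdhaf4 fell from 234 and 280 to 102 and 110, while Sdhaf2, which helps attach the flavin to Sdha, rose from 505 and 534 to 720 and 720.

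In complex I, 18 of 39 genes were lower and 9 higher. Ndufa4l2 went from 181 and 170 to 35.3 and 37.4 (-2.24), Ndufb2 from 728 and 582 to 280 and 245 (-1.31) and Ndufa2 from 468 and 451 to 245 and 230 (-0.95). The assembly factors Ndufaf6, Ndufaf7, a methyltransferase, and Ndufaf5, a hydroxylase, fell by 1.17, 1.09 and 0.91. Rises were in Ndufa1, from 539 and 501 to 868 and 927, Ndufa5, from 595 and 602 to 917 and 1000, Ndufb7, from 686 and 649 to 1049 and 954, and Ndufa11, Ndufa9 and Ndufb4. Ndufb7 thus rose by 0.58 here, in contrast to its falls after CTCF loss, while Ndufab1 fell by 0.65 and Ndufaf3 differed by -0.16 and was not called. Braf exons overlap Ndufb2 on the opposite strand, so reads of the pair might not be separated. Ndufb4c, also called higher, is annotated as a processed pseudogene.

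In complex III, 5 of 8 genes were lower and 2 higher, with Uqcr10 going from 1327 and 1380 to 2052 and 1949. In complex IV, 6 of 14 were lower and 3 higher, and the isoforms parted. Cox6b1 (chr7:30616861-30626151, minus strand), the general form, went from 3675 and 3648 to 2076 and 2070. Cox6b2 (chr7:4751792-4753094, minus strand) went from 409 and 405 to 921 and 748. Per kilobase the Cox6b2 part of the pair was 6.63% ± 0.00242 (SD, n = 2) with the control and 20.4% ± 2.35 with the Chd4 hairpin. Cox7b2 went from 32.4 and 28.1 to 99.1 and 107, while Cox7b differed by -0.12 and was not called. Cox7b2 made up 2.08% ± 0.135 and 7.27% ± 0.381 of its pair.

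ATP synthase had 10 of 17 genes lower and 2 higher. The abundant head subunits fell together: Atp5b from 39261 and 38796 to 27769.6 and 26971, Atp5a1 from 23886 and 23857 to 15019 and 16021, and Atp5c1 from 8547 and 8578 to 5774 and 5463. Atp5l and Atp5k, subunits g and e of the membrane part, rose by 0.39 and 0.26. The ATP synthase portion of the library went from 0.5815% ± 0.00191 (SD, n = 2) to 0.481% ± 0.0034, and that of all members from 1.232% to 1.085%. With any 1 library left out 56 to 62 members were called, and 53 of the 64 were called in every such fit.

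**Figure D5:**
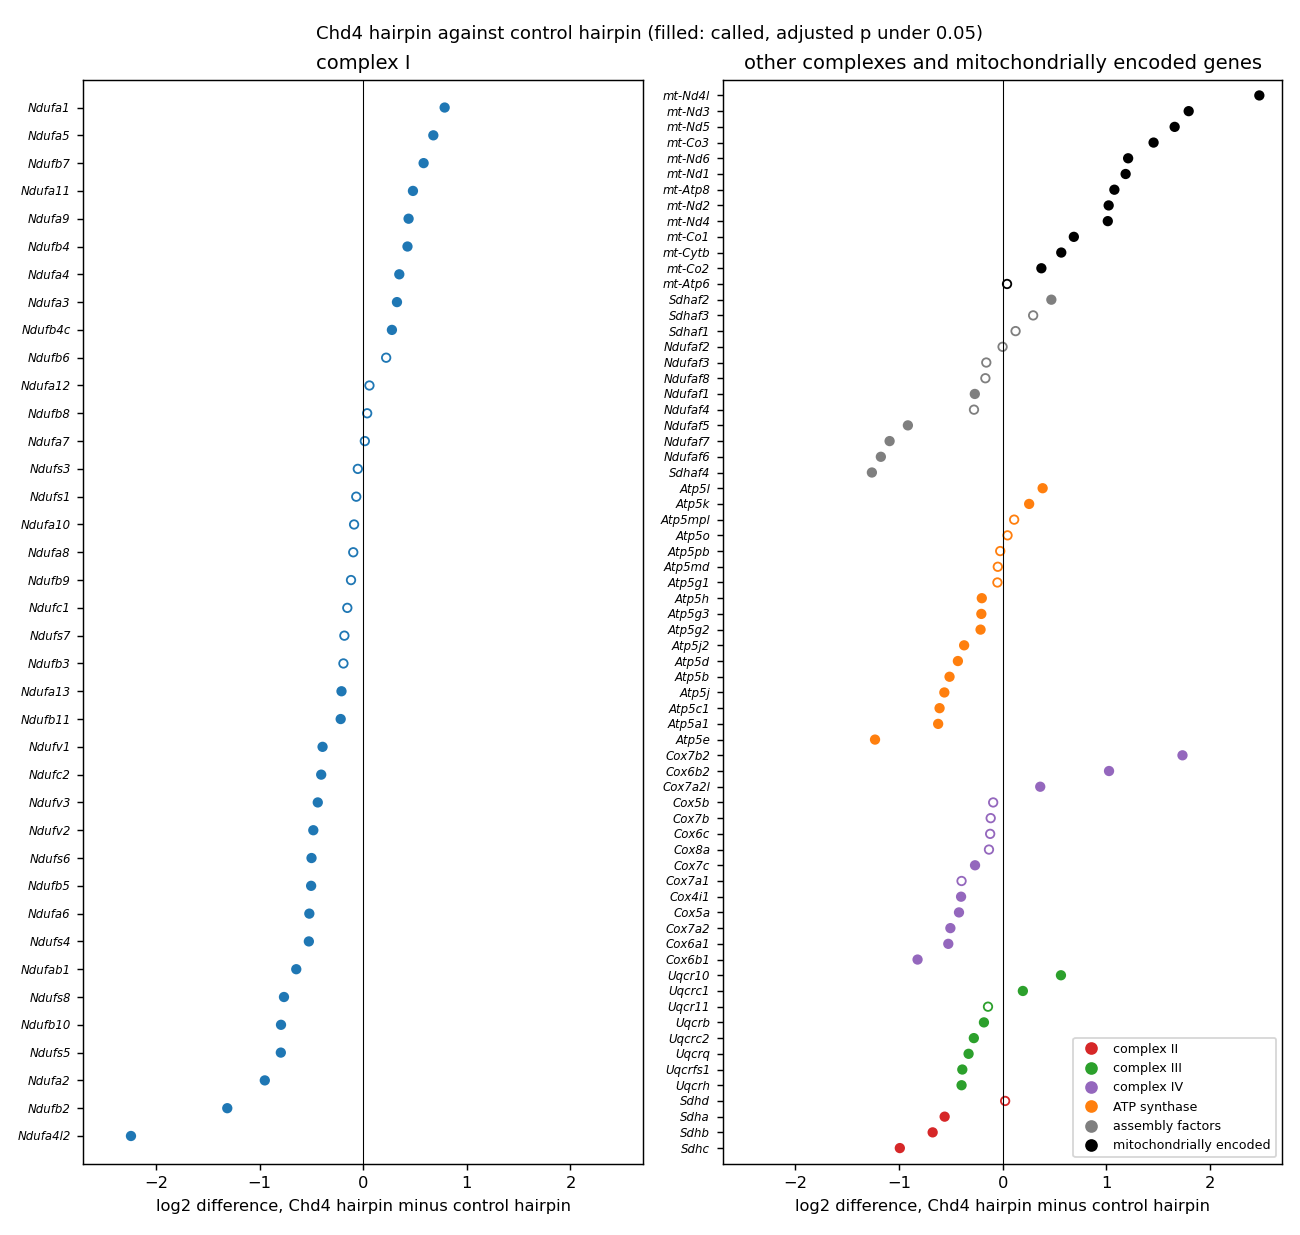
Log2 difference between the Chd4 and the control hairpin (horizontal axis) for tested members, complex I on the left and the other complexes, the assembly factors and the 13 mitochondrially encoded subunits on the right; filled points were called. Complex II has 3 filled points below 0 and none above, Cox6b2 and Cox7b2 lie to the right of the other complex IV genes, and 12 of the 13 mitochondrially encoded genes are filled above 0.

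The 13 subunits encoded in mitochondrial DNA, which fall outside the symbol rule, often moved apart from the nuclear ones. With the Chd4 hairpin 12 were higher and none lower, with a median of 1.08, and their part of the library's summed value was 2.49% and 2.46% in the control and 4.96% and 4.39% in the Chd4 hairpin libraries. After RAD21 loss 10 were lower and none higher at 12 h (median -0.78), and 5 were lower and none higher at 24 h (median -0.26). Their part of the library was 1.96% and 1.94% at 0 h, 1.11% and 1.11% at 12 h, and 1.65% and 1.70% at 24 h. In that experiment 8 were higher and none lower from 12 h to 24 h.

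After CTCF loss, 0 mitochondrially encoded genes were higher and 1 was lower at 12 h, and 8 were higher and 1 lower at 24 h. In the serum-labelled cells 1 was higher and 5 lower. IAA gave 7 higher and none lower in the overexpression control, 8 higher and none lower with wild-type CTCF, and none higher and 6 lower with mutated CTCF. In that last line their part of the library was 2.80% and 3.03% without and 2.44% and 2.41% with IAA. The libraries were made from polyadenylated RNA, which recovers mitochondrial messages unevenly, and whether the differences reflect RNA level or recovery was not tested.

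Other mitochondrial gene lists are set beside the share of all genes called, 9.39% higher and 8.40% lower after 12 h in CTCF AID cells, and 12.8% and 12.5% in the overexpression control with IAA. A list of 17 genes joined the tricarboxylic acid cycle with pyruvate dehydrogenase. After 12 h in CTCF AID cells 1 was higher, the pyruvate dehydrogenase gene Pdha1, and 2 were lower. In the overexpression control with IAA 1 was higher, the cycle gene Mdh2, and 3 were lower. Of 78 mitochondrial ribosomal protein genes, 2 were higher and 3 lower, and 4 higher and 5 lower, in the same comparisons, which are lower shares than those of all genes. A list of 17 tested genes joined regulators of respiratory genes with factors that act on mitochondrial DNA or RNA. After 12 h in CTCF AID cells 3 were higher (Twnk, Lrpprc and Myc) and 1 lower (Gabpa). In the overexpression control with IAA 4 were higher (Twnk, Polg, Pprc1 and Myc) and 1 lower (Gabpb1). With the Chd4 hairpin, 33.5% of all genes were called higher and 33.8% lower. Among those with a mean of at least 100 the shares were 30.8% and 41.8%. Beside this, 1 gene of the list of cycle and pyruvate dehydrogenase genes was higher and 12 were lower there, with a median of -0.29. The ribosomal list had 18 higher and 26 lower, and the 20 tested subunits and carriers outside the symbol rule had 4 higher and 11 lower (median -0.20). The 38 tested assembly factors outside the rule had 11 higher and 11 lower there.

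Exons of 33 members overlap a gene on the opposite strand and those of 5 a gene on the same strand, Atp5o among them, where both genes carry the same name. Members also have processed pseudogenes, and how reads shared with them were assigned is not given in the sources used here.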

How the data were processed

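Polyadenylated RNA of 32 libraries was sequenced by the authors, per the labels' protocols. The deposited values are normalised counts, treated here as a signal that is never negative. The authors named Trim Galore, Bowtie2, STAR, RSEM, DESeq2 and the mm10 build, without roles or versions, per the submitters' processing notes; annotation, strand setting and listing filter are not given in the sources used here. Whole reads could not be recovered from low values in the libraries examined, so depth is unknown and no count test was run. The CTCF AID table ends in 1 incomplete line, which was dropped. Single values of 1 member are not reported here.

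Within each table, limma 3.58.1 (R 4.3.3, mean trend) was fitted to log2(value + 1) for genes with a mean of at least 10, with all groups of the table in the fit and p-values adjusted over all genes. Exact permutation of 2 against 2 libraries cannot go below p = 0.333. Complexes were assigned by symbol. Positions and exonic lengths came from GENCODE M21 (GRCm38), in which all 96 members were found, and promoters from RefSeq. An exonic length is the union of all annotated exons of a gene. Named genes were, per comparison, up to 3 of the largest called rises and falls with a mean of at least 100 and no overlap between libraries (up to 10 for the hairpins), plus fixed isoforms and core subunits; other called genes named here were chosen after their values were seen. Members, lists and tests were chosen with earlier results of these data known. Marker lists covered embryonic stem cells, primitive endoderm, trophoblast, mesoderm, neural, fibroblast and two-cell-like cells, with Eomes on both the trophoblast and the mesoderm list. The fitting code was tested on simulated data. Alternatives were a pseudocount of 5, no filter, a mean of at least 100, trimmed-mean and quantile scaling, a replicate block, fits of only the groups compared, groups from the treatment label, and each library left out.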

Additional observations from a re-analysis of the deposited data

Results flagged for a closer look

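In all, 3 of 94 members had an effect of IAA that differed between overexpression lines in a limma interaction test. Over all genes 1.41% were called for wild-type and 1.64% for mutated CTCF, so the member counts lie near the share of all genes. The effect on Ndufaf4 was 0.55 higher (log2 scale) with wild-type CTCF than in the control cells, and that on Ndufb7 was 0.48 higher. The effect on Ndufab1 was 0.52 higher with mutated CTCF than in the control cells. One group in each contrast has a title and a treatment label that disagree.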

How the results depend on the processing

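No result changed direction under any alternative. Fits of only the groups compared gave 6 called members after 24 h of RAD21 loss (10 with all groups), 8 for IAA with wild-type CTCF (14), 0 for mutated CTCF against control without IAA (2) and 0 for the IAA effect with wild-type CTCF minus control (2). For that last test a pseudocount of 5, no filter, quantile scaling and the replicate block each gave 1 call, and for mutated CTCF against control the replicate block gave 0. Over all genes tested, samples with the same replicate number did not deviate together. The correlations of their deviations ran from -0.06 to 0.10, with 1 of 15 pairs over 0.1 in the overexpression table and none elsewhere. Single members could still do so: without IAA, as titled, Atp5b was higher in the second library of each overexpression line. It was at 39725 and 46115 with the control, 37574 and 44164 with wild-type CTCF, and 37741 and 43760 with mutated CTCF. The numbers were not taken as pairs, and the block moved no other count by over 1.5 times. With 1 library left out, where the lone library is assumed to vary like the other groups, counts of called members ran from 3 to 4 (CTCF 12 h), 7 to 13 (CTCF 24 h), 0 to 0 (CTCF 24 h against 12 h), 1 to 2 (RAD21 12 h), 1 to 3 (RAD21 24 h), 4 to 7 (RAD21 24 h against 12 h), 7 to 11 (serum), 56 to 62 (Chd4), 17 to 21 (IAA in control), 7 to 10 (IAA with wild-type CTCF), 6 to 10 (IAA with mutated CTCF), 0 to 0 and 0 to 1 (wild-type and mutated CTCF without IAA), and 0 to 1 in both interaction tests; fewer samples are part of this setting. Groups taken from the treatment label gave 0 calls for wild-type CTCF against control, as by title. Of the medians by complex under the alternatives, 946 moved by less than the spread between replicates and 86 by more. Of the single-gene results, 981 stayed past the threshold and 175 fell short of it, in the same direction. Depth is unknown, and with 2 libraries per group small differences of single genes could not be resolved.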
